A study of Sus scrofa with 15 samples.

Results

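The mitochondrial ribosome (mitoribosome) translates the messenger RNAs of mtDNA into subunits of the oxidative phosphorylation (OXPHOS) complexes. Its rRNAs come from mtDNA, whereas its proteins are made in the cytosol from nuclear genes and imported. The large subunit (MRPL genes) carries the peptidyl transferase centre and the small subunit (MRPS genes) binds and decodes the mRNA. Some of the proteins have bacterial counterparts and the others are specific to mitochondria. Genes whose symbol starts with MRPL or MRPS followed by a digit, together with DAP3, PTCD3 and GADD45GIP1, were taken from the pig gene table by way of their Ensembl gene IDs. This gave 68 of 22516 rows, 41 of the large and 27 of the small subunit by symbol, with GADD45GIP1 counted as large and DAP3 and PTCD3 as small. RefSeq (assembly Sscrofa11.1) lists 80 symbols that meet the same rule, and the other 12, which matched no row by symbol, are not analysed here.

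The 15 libraries were made from pools of pig oocytes, 5 each of germinal vesicle (GV), metaphase II (MII) and ‘damaged’ oocytes, from sow ovaries of an abattoir. GV oocytes were taken from fresh follicles without culture. MII and ‘damaged’ oocytes had been matured in vitro for 44 h inside cumulus complexes and differed in the first polar body, which was seen in MII and not in ‘damaged’ oocytes, a visual sort. The comparison asked how expression changes as oocytes mature, and MII and ‘damaged’ together were called MIX, as in the study.

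The estimated counts per library summed to between 6400412 and 23568633, with GV replicate 3 the lowest. GV replicate 3 was left out of every mean and fit, and its values are printed as the third of each list of 5 GV values. Levels are given as CPM, counts relative to the library total scaled by TMM factors, which lay between 1.35 and 1.73 in GV and between 0.794 and 0.922 in MIX. Values in TPM, which correct for transcript length and library total, are named where used. Over all 13228 genes tested the median change was -0.16 (log2) with TMM factors and -1.06 on library sizes, so each change below is relative to a scale that shifted by that much. Pools held equal numbers of oocytes by design, but libraries were bulk and RNA per oocyte was not measured, so loss of oocytes and less RNA per oocyte cannot be told apart. Libraries were made from polyadenylated RNA, so levels here are those of polyadenylated transcripts, and the length of poly(A) tails was not measured. All 10 of the oocyte markers with a row (GDF9, BMP15, ZP2, ZP3, ZP4, NLRP5, OOEP, FIGLA, MOS, KIT) had counts in every library, with a summed level of 7066 to 12234 CPM in GV, 5428 to 7904 CPM in MII and 6019.8 to 7998 CPM in ‘damaged’ oocytes. The 10 cumulus and granulosa markers with a row summed to 2.36 to 12.7 CPM in GV, 1.16 to 7.12 CPM in MII and 1.22 to 4.44 CPM in ‘damaged’ libraries. STAR was the 1 marker of that list with a count in every library, AMH was at 0 in 7 libraries and INHA at 0 in 9. Their part in the results was not tested. Pools came from biologically independent collections that each covered GV, MII and ‘damaged’ oocytes. The animals behind a pool are not given in the sources used here, so p-values measure the spread between pools. MII and ‘damaged’ pools of a shared collection were entered as separate libraries, without a term for the collection. SEs and FDRs of MIX treat its 10 libraries as independent, although they do not come from 10 separate collections.

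Most mitoribosomal protein transcripts were lower in MIX than in GV oocytes, while a smaller set was higher. With a test passed at FDR under 0.01 (limma-voom, Benjamini-Hochberg over all genes tested), 43 of the 67 members tested were lower and 15 were higher in MIX, and 9 did not pass. Among all genes tested, 37.2% were lower and 30.3% higher by the same rule. Members had a median log2 fold change of -1.43, with a range from -5.62 to 2.17. Genes that also differed by more than 2 on the log2 scale are called differentially expressed genes (DEGs), the threshold of the study. Of the members, 29 were downregulated DEGs and 1 was an upregulated DEG, against 16.7% and 4.27% of all genes. MRPL12 and MRPS2, among the downregulated DEGs, had passed the filter on low counts through GV alone and could only be called as lower. The 4 GV libraries lay wholly above the 10 MIX libraries in 36 members and wholly below them in 12, compared with 29.4% and 24.3% of all genes. On library sizes, 51 members were lower and 8 higher, beside 60.5% and 12.1% of all genes. Those 8 were all among the 15.

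The remaining member, MRPL57, did not pass the filter on low counts, with estimated counts of 6.99, 20.3, 25.8, 5.03 and 18.2 in GV replicates 1 to 5 and of 0 to 1.98 in the MIX libraries.

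**Figure D1:**
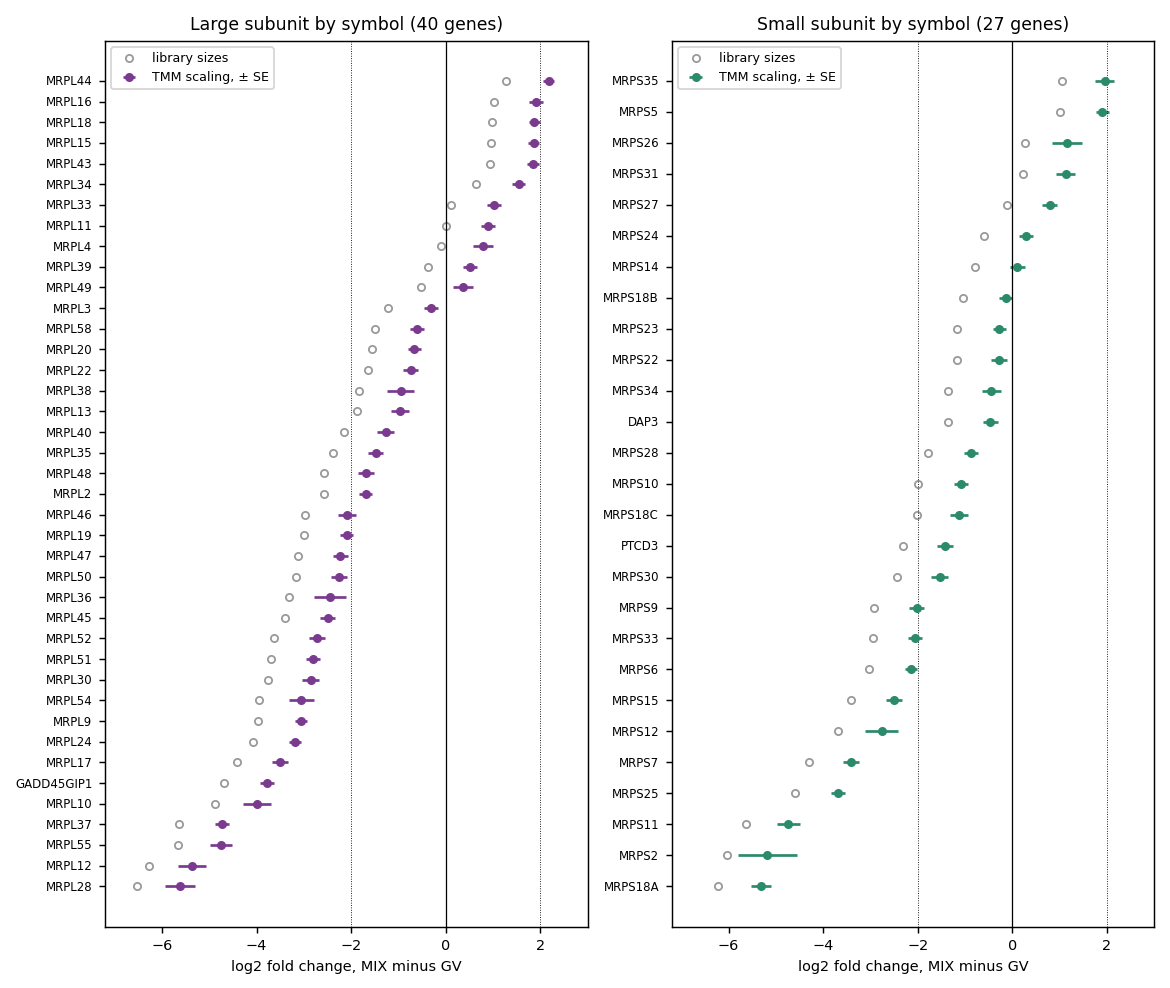
Log2 fold change of MIX over GV for the 67 members tested, large subunit left and small subunit right, with filled points for TMM scaling (bars are the SE of the fit), open points for library sizes and dotted lines at the DEG threshold of 2. MRPL44 is the 1 filled point to the right of 2, and every open point lies to the left of its filled one.

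The large and the small subunit were compared by counts and medians. In the large subunit 28 of 40 members tested were lower and 10 higher, and in the small subunit 15 of 27 were lower and 5 higher, with 2 and 7 that did not pass. The median log2 fold change was -1.69 for the large and -1.09 for the small subunit, against -0.16 for all genes. When MRPS18A and MRPS30 were placed in the large subunit, where they sit in the mitoribosome structure, the medians were -1.69 and -0.88. With GV replicate 3 included the small-subunit median was -0.87. On library sizes the medians were -2.58 and -1.99. Both subunits thus held members of either direction, and the range within each was wider than the distance between the medians.

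The members were also split by origin, and their counts are set against the 37.2% lower and 30.3% higher of all genes. Of the large-subunit proteins with bacterial counterparts, 16 of 24 were lower and 7 higher, with a median log2 fold change of -1.59. Of the mitochondria-specific large-subunit proteins, 14 of 18 were lower and 3 higher (median -1.89). Of the small-subunit proteins with bacterial counterparts, 10 of 13 were lower and 1, MRPS5, was higher (median -2.02). Of the 12 mitochondria-specific small-subunit proteins, 3 were lower, 4 were higher and 5 did not pass (median -0.28), near the shares and the median of all genes. On library sizes this last group had 8 lower, 1 higher and a median of -1.17. These groups were assigned by structure, so MRPS18A and MRPS30 stand among the large-subunit proteins.

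Summed over its genes, the large subunit had 4643, 3707, 3481, 3938 and 3403 CPM in the 5 GV libraries, 2908, 3122, 2824, 3124 and 3666 CPM in MII and 3454, 3129, 3270.0, 3178 and 2821 CPM in ‘damaged’ libraries. The small subunit had 4931, 3391, 2066, 3944 and 2712 CPM in GV, 2947, 2703, 2951, 3102 and 3613 CPM in MII and 3542, 3177, 3318, 2818 and 2629.5 CPM in ‘damaged’ libraries. On this scale GV and MIX libraries overlapped for both sums. The large-subunit sum was 3922 ± 528 CPM in GV (SD, n = 4) and 3149 ± 269 CPM in MIX (SD, n = 10), a ratio of 0.803, and the small-subunit sum was 3744 ± 938 and 3080.0 ± 335 CPM, a ratio of 0.823. On library sizes the ratios were 0.435 and 0.449, and in TPM they were 0.525 and 0.402.

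A few genes carried these sums. MRPL37 alone gave 1061 ± 89.1 CPM of the large-subunit sum in GV, and without it the sum was 2862 ± 587 CPM in GV and 3109 ± 266 CPM in MIX, which turned the ratio to 1.09 with TMM factors. On library sizes and in TPM the ratio without MRPL37 stayed below 1, at 0.591 and 0.625. MRPS14 alone gave 1435 ± 435 CPM of the small-subunit sum in GV, and without it the ratio was 0.685 with TMM factors, 0.373 on library sizes and 0.36 in TPM. The large subunit made up 51.6 ± 3.12% of the members' CPM in GV and 50.6 ± 1.62% in MIX. Per length, its share of the members' TPM was 59.8 ± 1.89% in GV and 66.0 ± 1.63% in MIX, so the balance of the subunits differed with the unit.

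**Figure D2:**
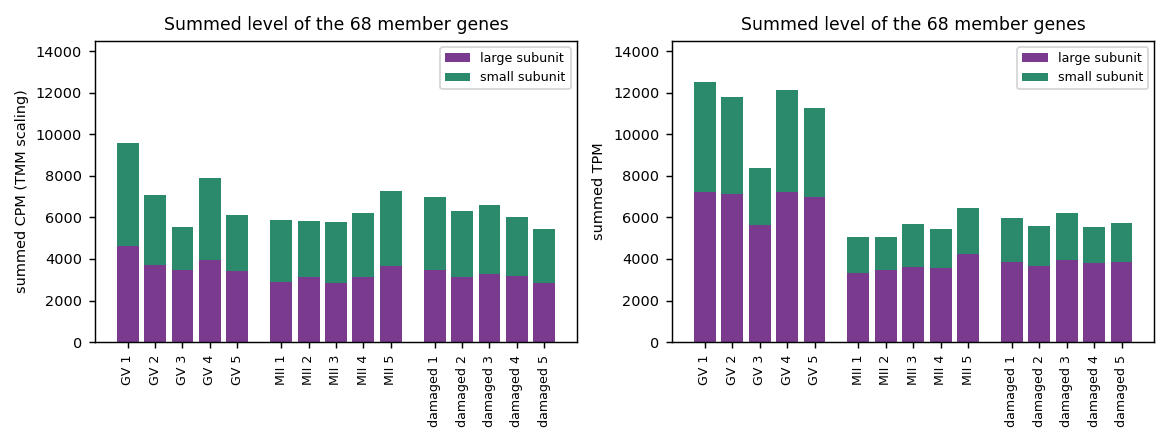
Summed level of the 68 members in each of the 15 libraries, in CPM with TMM scaling (left) and in TPM (right), with the large subunit in purple below and the small subunit in green above. The GV and MIX libraries overlap in summed CPM with TMM scaling, whereas each GV bar in TPM, GV 3 included, stands above every MIX bar. The panels differ in scaling as well as in length correction. In CPM on library sizes, not drawn, the lowest GV sum was 9425 and the highest MIX sum 6103.

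The 15 members that were higher in MIX are given first. MRPL44, a protein of the large-subunit surface related to RNase III and needed for assembly of that subunit, lies at chr15:125732419-125739819 (RefSeq, Sscrofa11.1, as for all positions here). It had 18.1, 16.7, 25.8, 20.2 and 17.8 CPM in GV replicates 1 to 5, 83.7, 77.7, 65.4, 87.3 and 88.4 CPM in MII replicates 1 to 5 and 86.8, 85.9, 86.6, 87.2 and 73.5 CPM in ‘damaged’ replicates 1 to 5. Every MIX library was above every GV library. It was the 1 upregulated DEG among the members, at 18.2 ± 1.45 CPM in GV and 82.3 ± 7.64 CPM in MIX (SD, n = 4 and 10) and a log2 fold change of 2.17 (SE 0.118, FDR = 1.28e-12). On library sizes its log2 fold change was 1.28, and no member was an upregulated DEG on that scale, against 0.348% of all genes. Without GV replicate 1, MRPL16, MRPS35 and MRPS5 passed the fold threshold as well, and with GV replicate 3 included MRPL18, MRPS35 and MRPS5 did.

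MRPL15, MRPL16 and MRPL18 have bacterial counterparts (L15, L16 and L18) that bind large-subunit rRNA. MRPL15 (chr4:77069074-77083595) had 119.8, 104, 83.4, 115 and 99.4 CPM in GV, 378, 439, 373, 402 and 437 CPM in MII and 338, 378, 354, 499 and 379.9 CPM in ‘damaged’ libraries. MRPL16 (chr2:11689511-11694248) had 156, 96.0, 78.4, 101 and 73.0 CPM in GV, 346, 467, 349, 369 and 430.1 CPM in MII and 434, 378, 337, 405 and 349.7 CPM in ‘damaged’ libraries. MRPL18 (chr1:7581763-7590037) had 177, 133, 77.3, 153 and 112 CPM in GV, 501, 550.2, 425, 506 and 540.0 CPM in MII and 591, 513, 546, 534 and 465 CPM in ‘damaged’ libraries. In each of them the groups did not overlap, and the lowest MIX library was above the highest GV library. Their log2 fold changes were 1.86 (SE 0.111, FDR = 5.3e-12), 1.91 (SE 0.148, FDR = 2.52e-10) and 1.87 (SE 0.118, FDR = 1.09e-11), and they also rose on library sizes, at 0.96, 1.01 and 0.97.

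The small-subunit proteins MRPS5, the counterpart of bacterial S5 near the mRNA entry, and MRPS35, which is specific to mitochondria, rose by similar amounts. MRPS5 (chr3:46137566-46169403) had 37.8, 21.4, 14.4, 31.1 and 21.6 CPM in GV, 83.1, 108, 94.9, 105 and 117 CPM in MII and 104, 102, 109, 106 and 87.0 CPM in ‘damaged’ libraries. MRPS35 (chr5:45973698-46023003) had 57.6, 21.7, 12.3, 17.9 and 24.0 CPM in GV, 113, 104, 105, 111 and 93.3 CPM in MII and 141, 101, 106, 90.2 and 85.5 CPM in ‘damaged’ libraries. GV replicate 1 was the highest GV library for both, and no GV library reached the MIX range. The log2 fold changes were 1.90 (SE 0.144, FDR = 1.76e-10) and 1.95 (SE 0.207, FDR = 3.2e-08), or 1.00 and 1.04 on library sizes.

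MRPL43, specific to mitochondria, and MRPL34, the counterpart of the small bacterial protein L34, complete the 8 members that rose on either scale. MRPL43 (chr14:112068678-112070226) had 82.0, 56.3, 37.0, 70.3 and 48.2 CPM in GV, 207, 227, 195, 238 and 249 CPM in MII and 227, 225, 252, 225 and 206 CPM in ‘damaged’ libraries. MRPL34 (chr2:60377904-60378967) had 31.9, 23.5, 16.7, 21.9 and 17.7 CPM in GV, 59.4, 60.2, 62.4, 68.1 and 77.7 CPM in MII and 79.8, 71.3, 73.7, 62.4 and 62.7 CPM in ‘damaged’ libraries. Neither gene's groups overlapped. The log2 fold change was 1.84 (SE 0.125, FDR = 3.47e-11) for MRPL43 and 1.54 (SE 0.14, FDR = 2.67e-09) for MRPL34, and on library sizes 0.94 and 0.64.

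The other 7 passed with TMM factors but not on library sizes, where 3 were above 0 and 4 below. MRPS26, MRPS31 and MRPS27, all specific to the mitochondrial small subunit, belonged to them. MRPS26 (chr17:32629281-32631434) had 13.6, 20.6, 26.6, 24.4 and 26.5 CPM in GV, 53.1, 60.8, 11.8, 53.8 and 45.5 CPM in MII and 52.1, 55.5, 44.1, 55.7 and 63.6 CPM in ‘damaged’ libraries. MII replicate 3 lay below every GV library, so the groups overlapped, and the log2 fold change of 1.15 (SE 0.317, FDR = 0.00259) did not pass without GV replicate 1, where it was 0.97 (FDR = 0.0144), nor on library sizes, where it was 0.27. MRPS31 (chr11:15450698-15472320) had 405, 223, 110.1, 283 and 176 CPM in GV, 439, 509.8, 731, 590.1 and 644 CPM in MII and 661, 566, 852, 438 and 377 CPM in ‘damaged’ libraries. GV replicate 1 reached into the MIX range, and the log2 fold change was 1.13 (SE 0.203, FDR = 4.01e-05) with TMM factors and 0.23 on library sizes. MRPS27 (chr16:48509064-48642571), a pentatricopeptide repeat protein, had 19.3, 14.6, 6.83, 19.7 and 10.9 CPM in GV, 24.1, 24.5, 29.7, 27.0 and 24.98 CPM in MII and 26.0, 27.3, 38.5, 26.1 and 23.7 CPM in ‘damaged’ libraries. Its groups did not overlap, and its log2 fold change was 0.79 (SE 0.16, FDR = 0.000155) with TMM factors but -0.11 on library sizes.

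MRPL33, MRPL11, MRPL4 and MRPL39 were the large-subunit members of this set. MRPL33 (chr3:111428850-111438735), the counterpart of bacterial L33, had 104, 72.2, 40.9, 88.4 and 54.7 CPM in GV, 145, 116, 155, 169.8 and 175 CPM in MII and 184, 183, 174, 151 and 129 CPM in ‘damaged’ libraries. Groups did not overlap, with a log2 fold change of 1.02 (SE 0.153, FDR = 4.36e-06) and of 0.12 on library sizes. MRPL11 (chr2:5978470-5981449), the counterpart of L11 at the base of the stalk where elongation factors bind, had 157, 101, 61.5, 120.1 and 87.1 CPM in GV, 197, 212, 178, 211 and 273 CPM in MII and 254, 219, 236, 173 and 179 CPM in ‘damaged’ libraries. The log2 fold change was 0.90 (SE 0.147, FDR = 1.34e-05) with TMM factors and -0.0014 on library sizes, and again no GV library reached the MIX range.

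MRPL4 (chr2:69063679-69082692), the counterpart of L4, which lines the exit tunnel, had 21.1, 19.8, 33.1, 24.7 and 24.99 CPM in GV, 20.05, 38.7, 44.1, 39.8 and 49.6 CPM in MII and 27.1, 34.4, 66.9, 45.0 and 36.8 CPM in ‘damaged’ libraries. The 4 GV libraries used and MIX overlapped through MII replicate 1, and the log2 fold change of 0.78 (SE 0.214, FDR = 0.00261) turned to -0.11 on library sizes and did not pass without GV replicate 2 (0.72, FDR = 0.0122). MRPL39 (chr13:189148711-189166302), a mitochondria-specific protein related to threonyl-tRNA synthetase, had 205, 184, 358, 175 and 177 CPM in GV, 258, 242, 212, 277 and 344 CPM in MII and 362, 255, 322, 206 and 214 CPM in ‘damaged’ libraries. The 4 GV libraries used were below all MIX libraries and GV replicate 3 was not. Its log2 fold change of 0.52 (SE 0.144, FDR = 0.00295) turned to -0.38 on library sizes and did not pass with GV replicate 3 included (0.33, FDR = 0.0869) or without GV replicate 4 (0.49, FDR = 0.0116). With estimated counts summed per gene, not scaled by transcript length, MRPL39, MRPL4 and MRPS27 no longer passed, at 0.06, 0.29 and 0.36. With a filter of 10 CPM, 11 members were higher, and those lost were MRPL39 (0.19, FDR = 0.213), MRPL4 (0.46, FDR = 0.0572), MRPS26 (0.83, FDR = 0.0232) and MRPS27 (0.47, FDR = 0.0102).

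**Figure D3:**
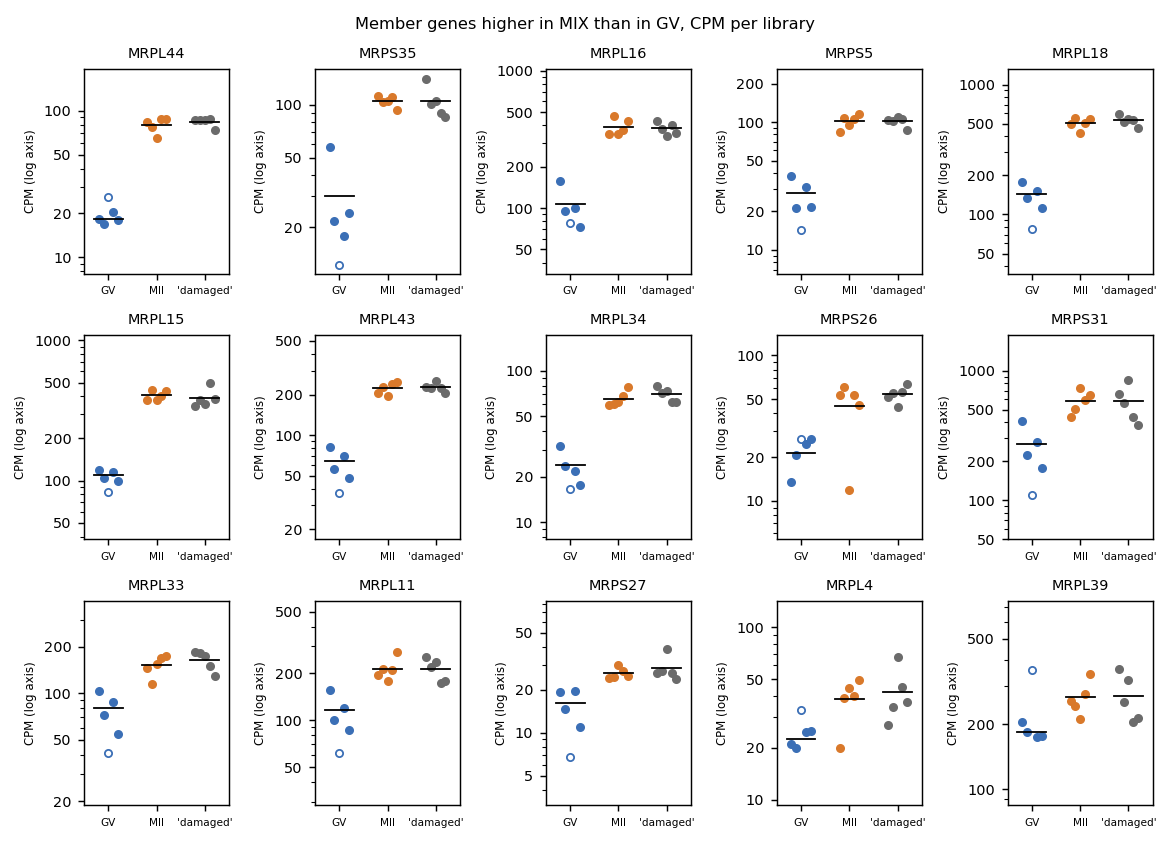
CPM with TMM scaling (log axis) of the 15 members that passed the test upward, in order of their fold change, with a point per library, black lines at group means and GV replicate 3 as an open circle outside the mean. In MRPS26 an MII library lies below every GV library, in MRPL4 one stands among them, in MRPS31 a GV library stands among the MIX libraries, and in MRPL39 the open circle does.

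The largest falls in the large subunit were those of MRPL28, MRPL12, MRPL55 and MRPL37. MRPL28 (chr3:41330412-41333520), the counterpart of bacterial L28, had 34.0, 28.5, 26.4, 32.0 and 36.0 CPM in GV, 0.504, 0.476, 1.09, 0.582 and 1.66 CPM in MII and 0.954, 0.0674, 0.969, 0.502 and 0.735 CPM in ‘damaged’ libraries. MRPL12 (chr12:1200458-1203817), the counterpart of the L7/L12 stalk protein that recruits translation factors, had 10.6, 7.44, 5.14, 8.02 and 8.71 CPM in GV, 0.375, 0.0751, 0.381, 0.105 and 0.307 CPM in MII and 0.0752, 0.15, 0.24, 0.127 and 0.199 CPM in ‘damaged’ libraries. Both had few reads in MIX, with estimated counts of 0.887 to 26.5 for MRPL28 and 0.988 to 4.92 for MRPL12, and no MIX library reached the GV range. The log2 fold changes were -5.62 (SE 0.308, FDR = 1.39e-12) and -5.36 (SE 0.291, FDR = 1.23e-12). MRPL12 stayed under the count minimum of 10 in every MIX library. It passed the filter through GV alone, so a fall was the only direction that could be called.

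MRPL55 (chr2:51243257-51247626) had 45.0, 35.7, 31.8, 36.8 and 33.0 CPM in GV, 1.63, 1.202, 2.5, 0.933 and 1.78 CPM in MII and 1.89, 0.401, 1.33, 1.41 and 1.83 CPM in ‘damaged’ libraries. MRPL37 (chr6:158091873-158143529), a mitochondria-specific protein, had 1028, 1038, 1305, 988 and 1191 CPM in GV, 34.4, 31.1, 46.7, 27.5 and 51.5 CPM in MII and 44.1, 27.9, 51.7, 44.8 and 47.7 CPM in ‘damaged’ libraries. MRPL37 was the member with the highest CPM of the large subunit in GV, and its highest MIX library was far under its lowest GV library. The log2 fold change was -4.75 (SE 0.231, FDR = 2.8e-13) for MRPL55 and -4.73 (SE 0.153, FDR = 1.64e-15) for MRPL37, and -5.66 and -5.63 on library sizes. GV libraries differed in which MRPL37 transcript was counted, as the transcript of 2287 bases held 96.9, 72.4, 14.8, 97.2 and 87.8% of the gene's TPM in GV replicates 1 to 5, and between 93.8 and 96.6% in MIX.

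Among genes with a small-subunit symbol the largest falls were those of MRPS18A, MRPS2, MRPS11 and MRPS25. MRPS18A (chr7:38641755-38657472), which sits in the large subunit despite its name, had 52.5, 32.3, 16.1, 34.7 and 43.5 CPM in GV, 1.28, 0.743, 0.977, 1.08 and 1.27 CPM in MII and 1.44, 0.719, 0.493, 0.909 and 1.29 CPM in ‘damaged’ libraries. Groups were apart by an order of magnitude, with a log2 fold change of -5.32 (SE 0.216, FDR = 2.82e-14). MRPS2, the counterpart of bacterial S2, has no chromosome in the RefSeq annotation used here. It had 0.998, 3.65, 8.21, 2.98 and 6.45 CPM in GV, 0.188, 0.301, 0, 0 and 0 CPM in MII and 0, 0.0753, 0.12, 0.0635 and 0.0664 CPM in ‘damaged’ libraries. The highest estimated count of MRPS2 in MIX was 3.96 and 4 MIX libraries had none, so its log2 fold change of -5.18 (SE 0.624, FDR = 1.97e-07) rests on few counts and has the widest SE of all members. MRPS2, too, passed the filter (count minimum 10) through GV alone, so it could only be called as lower.

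MRPS11 (chr1:191310547-191321951), the counterpart of S11 in the small-subunit platform, had 26.9, 22.3, 11.8, 20.5 and 19.1 CPM in GV, 1.21, 0.556, 1.56, 0.717 and 0.664 CPM in MII and 0.77, 0.609, 0.957, 1.56 and 0.289 CPM in ‘damaged’ libraries, with no overlap. Its log2 fold change was -4.73 (SE 0.245, FDR = 6.15e-13). MRPL46 (chr1:191321990-191331320), which also fell (-2.09, SE 0.19, FDR = 3.07e-09), lies 39 bases from MRPS11 by coordinate, without regard to strand. This was the 1 pair of members under 10000 bases apart. MRPS25 (chr13:69441100-69465912), specific to mitochondria, had 899, 598, 248, 663 and 555 CPM in GV, 49.1, 46.5, 71.1, 49.1 and 41.1 CPM in MII and 39.1, 57.8, 42.3, 66.1 and 66.2 CPM in ‘damaged’ libraries. No MIX library reached the GV range, and the log2 fold change was -3.69 (SE 0.156, FDR = 4.54e-14). With counts summed per gene and not scaled by transcript length it was -1.64 (FDR = 7.65e-09), so MRPS25 kept its direction and left the DEGs.

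Of the stalk proteins, MRPL10, which holds MRPL12 on the ribosome, fell as well. MRPL10 (chr12:24076484-24083086) had 9.32, 9.10, 10.2, 11.3 and 11.3 CPM in GV, 0.419, 0.42, 1.45, 0.235 and 0.275 CPM in MII and 1.01, 0.588, 1.54, 1.13 and 0.445 CPM in ‘damaged’ libraries, without overlap between GV and MIX. The log2 fold change was -3.99 (SE 0.301, FDR = 1.66e-10). MRPL10 and MRPL12 were thus lower in MIX, and MRPL11, next to them at the stalk base, was higher with TMM factors and near 0 (-0.0014) on library sizes.

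The 3 members without an MRP symbol are known by other names. GADD45GIP1 (chr2:66087421-66089578), also called CRIF1, sits near the exit tunnel of the large subunit. It had 64.3, 50.9, 47.2, 53.7 and 50.5 CPM in GV, 2.89, 3.28, 4.45, 4.50 and 3.53 CPM in MII and 3.70, 3.29, 4.39, 3.93 and 6.04 CPM in ‘damaged’ libraries, and it was a downregulated DEG without overlap (log2 fold change -3.78, SE 0.146, FDR = 1.79e-14). PTCD3 (chr3:58632214-58670785), a pentatricopeptide repeat protein of the small subunit, had 31.5, 35.1, 30.6, 33.5 and 39.8 CPM in GV, 14.4, 13.0, 25.7, 10.3 and 12.5 CPM in MII and 10.8, 11.8, 11.2, 11.3 and 14.1 CPM in ‘damaged’ libraries. It fell without overlap and short of the DEG threshold (-1.43, SE 0.166, FDR = 1.19e-07). DAP3 (chr4:94256460-94298492), a GTP-binding protein of the small-subunit head, had 17.9, 11.9, 7.59, 17.7 and 12.5 CPM in GV, 8.98, 7.73, 9.65, 11.2 and 12.5 CPM in MII and 14.3, 11.9, 12.1, 10.2 and 8.86 CPM in ‘damaged’ libraries. Its groups overlapped and it did not pass (-0.47, SE 0.163, FDR = 0.014), whereas it passed as lower without GV replicate 2 (FDR = 0.00782), without GV replicate 5 (FDR = 0.00908), without ‘damaged’ replicate 1 (FDR = 0.00759), with a filter of 10 CPM (-0.79, FDR = 0.000142) and on library sizes (-1.37).

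The 2 members of each subunit nearest to no change were MRPL3 and MRPL49 of the large and MRPS14 and MRPS18B of the small subunit. MRPS14 (chr9:117097841-117137188), the counterpart of bacterial S14, had 1908, 1297, 813, 1634 and 901 CPM in GV, 1498, 1194, 1249, 1534 and 1878 CPM in MII and 1839.8, 1629, 1452, 1374 and 1337 CPM in ‘damaged’ libraries. MRPS18B (chr7:23166314-23172718) had 88.5, 66.5, 30.8, 68.9 and 51.5 CPM in GV, 59.2, 66.0, 60.5, 62.8 and 67.2 CPM in MII and 67.6, 59.6, 56.6, 65.2 and 47.6 CPM in ‘damaged’ libraries. In both the GV libraries spread over the whole MIX range, and the log2 fold changes were 0.10 (SE 0.158, FDR = 0.559) and -0.15 (SE 0.129, FDR = 0.311). MRPL3 (chr13:984985-1024185), the counterpart of L3, had 119, 106, 111, 113 and 111 CPM in GV, 62.1, 70.3, 118, 87.9 and 96.9 CPM in MII and 81.9, 82.4, 131, 98.0 and 86.0 CPM in ‘damaged’ libraries. MRPL49 (chr2:7066514-7071812) had 6.85, 6.92, 12.1, 6.65 and 6.14 CPM in GV, 5.53, 7.46, 10.9, 7.32 and 10.2 CPM in MII and 9.53, 9.11, 15.5, 5.87 and 7.54 CPM in ‘damaged’ libraries. These overlapped too, at -0.32 (SE 0.149, FDR = 0.0592) and 0.37 (SE 0.211, FDR = 0.116). These calls changed with the processing. On library sizes MRPS14 (-0.79, FDR = 1.32e-05), MRPS18B (-1.04, FDR = 1.52e-08) and MRPL3 (-1.21, FDR = 5.76e-07) passed as lower and MRPL49 (-0.53, FDR = 0.0356) did not pass. With a filter of 10 CPM, MRPL3 (-0.64, FDR = 0.000555) and MRPS18B (-0.47, FDR = 0.00151) passed as lower, and with the replicate number as a block MRPL3 did (-0.44, FDR = 0.00269).

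The other members that fell are given by their log2 fold change alone. The further downregulated DEGs of the large subunit were MRPL17 (-3.51), MRPL24 (-3.19), MRPL9 (-3.06), MRPL54 (-3.05), MRPL30 (-2.85), MRPL51 (-2.81), MRPL52 (-2.73), MRPL45 (-2.49), MRPL36 (-2.44), MRPL50 (-2.26), MRPL47 (-2.23), MRPL19 (-2.09) and MRPL46 (-2.09). Those of the small subunit were MRPS7 (-3.40), MRPS12 (-2.76), MRPS15 (-2.50), MRPS6 (-2.14) and MRPS33 (-2.06), besides MRPS9 (-2.02), whose values are given with the comparison of MII and ‘damaged’ oocytes. MRPS12 had few estimated counts in MIX, at 2.37 to 24.9. Lower without reaching the fold threshold were MRPL2 (-1.69), MRPL48 (-1.69), MRPL35 (-1.48), MRPL40 (-1.27), MRPL38 (-0.95), MRPL22 (-0.74), MRPL20 (-0.66) and MRPL58 (-0.60) in the large subunit and MRPS30 (-1.54), MRPS18C (-1.13), MRPS10 (-1.09) and MRPS28 (-0.88) in the small subunit. MRPL38 had the narrowest margin of these (FDR = 0.00528). It did not pass without GV replicate 4 or 5, MII replicate 4 or ‘damaged’ replicate 2 or 4, nor by edgeR or DESeq2. A filter of 10 CPM removed it, so it was not tested there. The rest did not pass with TMM factors, namely MRPS34 (-0.45), MRPS22 (-0.28), MRPS23 (-0.27) and MRPS24 (0.29), all of the small subunit, and passed as lower on library sizes.

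**Figure D4:**
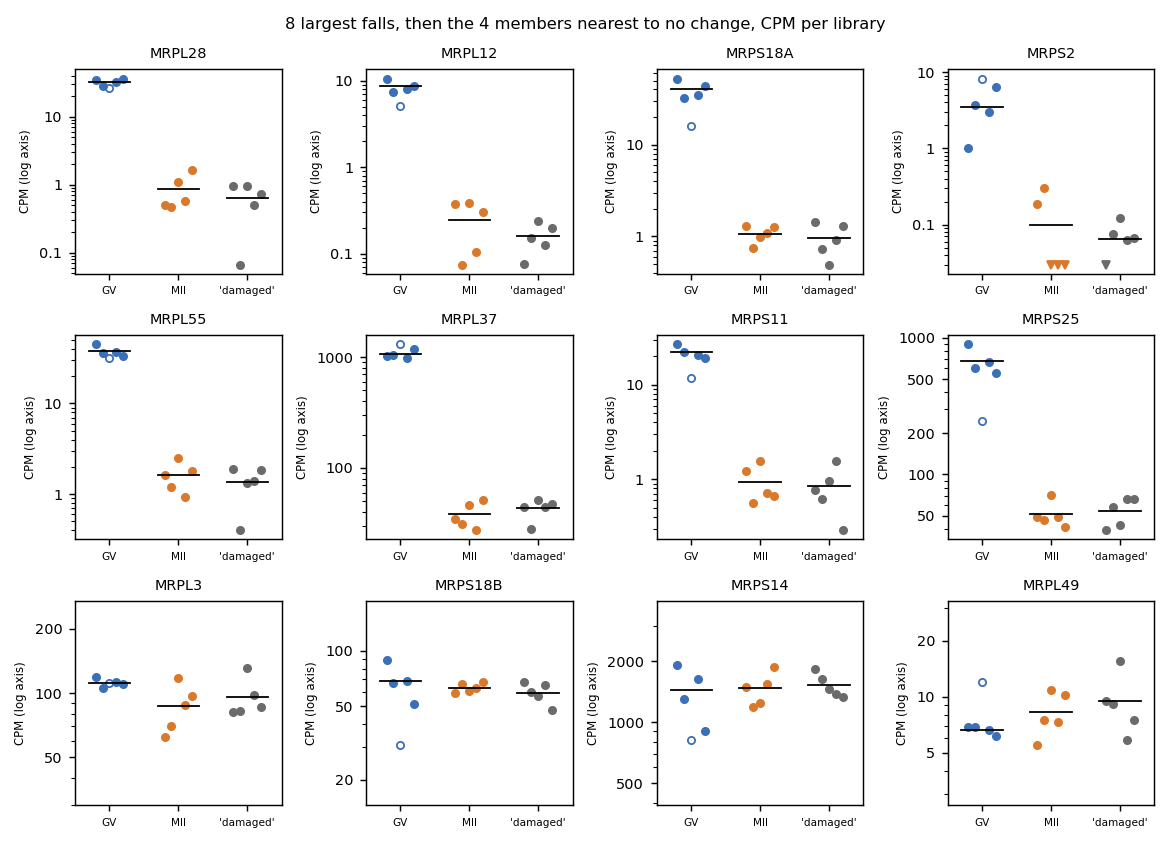
CPM with TMM scaling (log axis) per library for the 4 largest falls of each subunit by symbol (upper 2 rows) and the 2 members of each nearest to no change (bottom row), with black lines at group means, GV replicate 3 as an open circle outside the mean and triangles for libraries with a count of 0. GV and MIX points are apart in the upper rows and overlap in the bottom row.

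Compared per length within a library, the order of the members changed between stages. In GV the highest mean TPM were those of MRPS14 (1213 TPM), MRPL37 (1182 TPM) and MRPL13 (964 TPM). In MIX the highest were MRPL18 (769 TPM), MRPS14 (639.6 TPM) and MRPS31 (603 TPM), and MRPL37 had 22.2 TPM. MRPL13 (chr4:18608919-18671523), the counterpart of L13, had 439, 261, 113, 320.5 and 154 CPM in GV, 124, 129.7, 109.8, 146 and 186 CPM in MII and 170.2, 154, 138, 128 and 119.8 CPM in ‘damaged’ libraries, where GV replicate 5 reached the MIX range, and it fell with a log2 fold change of -0.98 (SE 0.19, FDR = 9.61e-05). The members were spread more widely in MIX: the quartiles of mean TPM over the 67 members tested were 27.6 and 216 in GV and 4.19 and 60.9 in MIX, and the SD of their log2 TPM was 1.89 and 2.95. This spread includes members with few counts in MIX, the lowest being MRPS2 at 0.086 TPM, and is given for the members only. The log2 fold change was weakly related to transcript length over the members (Pearson's r = 0.0701, Spearman's rho = 0.0773, n = 67 genes of the same libraries) and over all genes tested (r = 0.107, rho = 0.081, n = 13228). Over the members it was also weakly related to the log2 mean CPM in GV, which enters the fold change itself (r = 0.145, rho = 0.206).

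The changes in MII and in ‘damaged’ oocytes were then taken apart, in fits that share the GV libraries. Against GV, 42 members were lower and 12 higher in MII (34.2% and 28.2% of all genes), and 43 were lower and 14 higher in ‘damaged’ oocytes (33.4% and 28% of all genes). MRPL44 had a log2 fold change of 2.14 in MII and 2.21 in ‘damaged’ oocytes, and MRPL37 had -4.83 and -4.64. In the large subunit 27 of 40 were lower and 8 higher in MII, and 28 lower and 9 higher in ‘damaged’ oocytes. In the small subunit 15 of 27 were lower in each, with 4 higher in MII and 5 higher in ‘damaged’ oocytes. MRPL4, MRPS26 and MRPL38 passed in 1 of these comparisons alone, and none of them passed the direct test, at a log2 difference (MII minus ‘damaged’) of -0.11 (95% interval -0.60 to 0.37), -0.45 (-1.10 to 0.21) and 0.39 (-0.39 to 1.17).

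In the direct test of MII against ‘damaged’ oocytes, 0 of 67 members passed at FDR under 0.01 by limma-voom, by edgeR or by DESeq2, and 1 had an unadjusted p under 0.05, against 0% and 1.47% of all genes. That member was MRPL10, with the values given above, where the MII libraries held both the lowest values and the second highest. Its log2 difference (MII minus ‘damaged’) was -0.98 (95% interval -1.94 to -0.02), with FDR = 0.999991, and it moved between -1.37 and -0.72 when 1 library was left out. The next was MRPS9 (chr3:49626796-49681437), the counterpart of S9, with 83.7, 66.9, 53.8, 72.2 and 61.6 CPM in GV, 21.7, 20.7, 20.3, 16.0 and 18.1 CPM in MII and 11.2, 15.5, 12.7, 22.6 and 19.3 CPM in ‘damaged’ libraries. MII and ‘damaged’ libraries of MRPS9 overlapped (log2 difference 0.28, 95% interval -0.11 to 0.67), and both lay below GV (-2.02 for MIX, SE 0.155, FDR = 2.08e-10). For 57 of the 67 members the 95% interval of the difference lay within 1 log2 unit on either side of 0, and the median half-width was 0.412. These p-values and intervals take the pools as unpaired. With the replicate number as a block (limma-voom), the lowest FDR over all genes was 0.0236 and 0 genes passed. 

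The share of single transcripts set GV and MIX apart in some members, but no more often than in all genes with several transcripts. For 39 members with several transcripts counted, the share of the transcript that led in GV was followed in the gene's TPM. In 10 of them the GV and MIX libraries did not overlap, and in 7 of these the share differed by more than 10 percentage points (DAP3, MRPS11, MRPL4, MRPS27, PTCD3, MRPL52 and MRPL43), compared with 25.8% and 22.5% of the 7091 genes with several transcripts. The median absolute change was 8.79 percentage points in members and 11.7 in all such genes.

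The DAP3 transcript of 1474 bases held 45.8, 73.4, 85.8, 53.8 and 62.0% of the gene's TPM in GV, 0, 0, 0, 0 and 0% in MII and 0, 1.56, 3.61, 0 and 0% in ‘damaged’ libraries. Its level was 15.8 ± 2.34 TPM in GV and 0.0566 ± 0.132 TPM in MIX (SD, n = 4 and 10), whereas the DAP3 transcript of 1323 bases was at 6.74 ± 2.96 and 6.82 ± 1.25 TPM. The transcript that led in GV was thus almost absent from MIX. In the same unit the gene as a whole was at 27.2 TPM in GV and 9.72 TPM in MIX. It did not pass the test with TMM factors (-0.47) and passed as lower on library sizes (-1.37). The MRPS11 transcript of 809 bases held 95.2, 95.7, 93.9, 93.2 and 95.6% in GV, 57.2, 22.4, 70.8, 50.9 and 82.4% in MII and 0, 65.1, 18.3, 91.2 and 0% in ‘damaged’ libraries. MRPS11 had 4.28 to 24.2 estimated counts in MIX libraries, so its shares there are imprecise. The MRPL4 transcript of 2993 bases held 96.9, 98.7, 100, 99.9997 and 99.5% in GV, 96.3, 65.1, 65.1, 54.2 and 46.8% in MII and 84.4, 68.6, 50.4, 58.6 and 56.2% in ‘damaged’ libraries. A transcript of 660 bases was at 0.075 ± 0.15 TPM in GV and 7.97 ± 4.92 TPM in MIX, and MII replicate 1 was close to the GV shares. Taken from estimated counts, which favour the longer transcript, the MRPL4 share differed by -8.85 percentage points in place of -34.2. These are descriptions without a test.

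**Figure D5:**
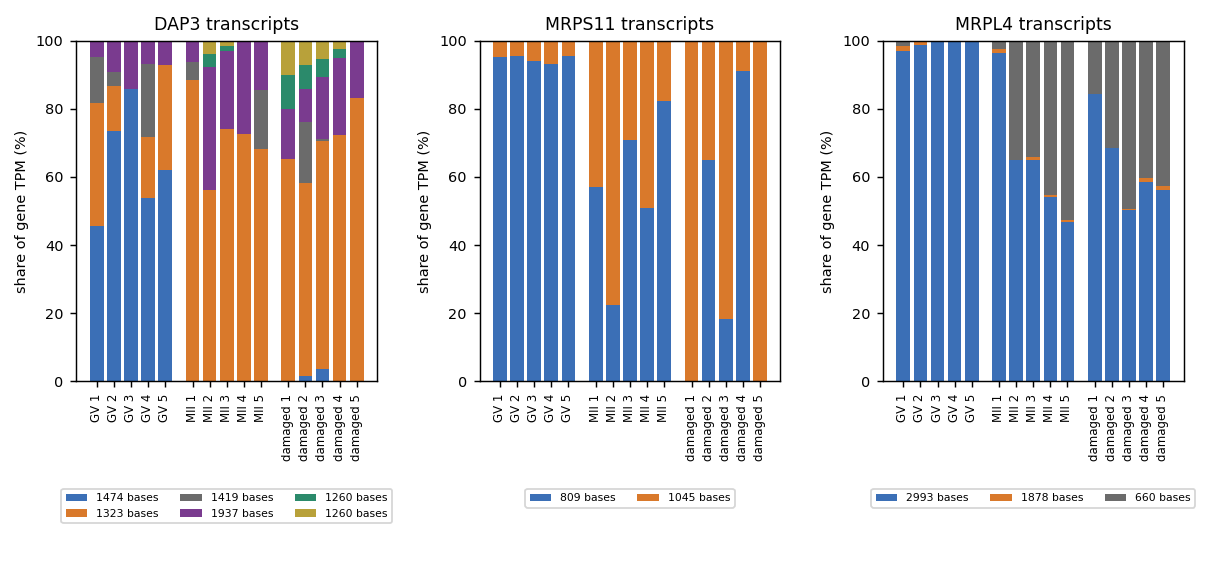
Share of each annotated transcript (named by its length) in the TPM of its gene, per library, for the 3 members whose leading GV transcript differed most between GV and MIX. The blue share is lower in MIX than in GV in each gene, at no more than 3.61% in DAP3, with wide scatter between MIX libraries in MRPS11 and with MII 1 just below the GV libraries in MRPL4.

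Other genes of mitochondrial translation were set beside the members. Of 41 tested (translation factors, mRNA handling and membrane insertion, mitoribosome assembly, and the mitoribosomal proteins AURKAIP1 and CHCHD1), 22 were lower and 9 higher in MIX, with a median log2 fold change of -0.84. Among all genes tested 37.2% were lower and 30.3% higher, with a median of -0.16. On library sizes 31 of the 41 were lower and 3 higher, beside 60.5% and 12.1% of all genes. The largest rises were those of FASTKD2 (167 ± 73.1 CPM in GV and 809.6 ± 89.3 CPM in MIX, log2 fold change 2.37, SE 0.178, FDR = 1.51e-10), an RNA-binding protein of large-subunit assembly, and MTERF3 (64.8 ± 16.3 CPM in GV and 227 ± 38.6 CPM in MIX, 1.82, SE 0.154, FDR = 9.48e-10), which acts in transcription and ribosome assembly. The largest falls were those of SLIRP (175 ± 29.1 CPM in GV and 6.22 ± 2.01 CPM in MIX, -4.84, SE 0.172, FDR = 5.58e-15), which stabilises mitochondrial mRNAs, and MPV17L2 (4.33 ± 0.835 CPM in GV and 0.217 ± 0.179 CPM in MIX, -4.46, SE 0.386, FDR = 1.35e-09), a membrane protein of mitoribosome assembly. Of 12 translation factors 4 were lower, 3 were higher and 5 did not pass, near the shares of all genes. Of 23 assembly factors 15 were lower and 4 higher.

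Of the groups most like the members, the cytosolic ribosomal protein genes had 35 of 56 lower and 10 higher (median log2 fold change -1.24), and the nuclear OXPHOS subunit genes had 46 of 69 lower and 11 higher (median -1.09). Among all genes tested 37.2% were lower and 30.3% higher. On library sizes the counts were 46 lower and 4 higher, and 56 lower and 4 higher, beside 60.5% and 12.1% of all genes. The median of the members (-1.43) was the lowest of the 3 groups, and this difference was not tested. Cytosolic ribosomal protein genes have many near-identical copies, among which the counting could split reads. Whether this affected their values here was not tested.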

How the data were processed

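Polyadenylated RNA of 15 pools of pig oocytes was made into cDNA with a SMART-Seq HT kit and sequenced as single-end reads. The authors trimmed the reads with AfterQC and ran Kallisto (version 0.43 in the submitters' processing notes) in default settings on the Ensembl cDNA of Sscrofa11.1, which gave the deposited estimated counts and TPM per transcript, and then made gene-level estimated counts with tximport (lengthScaledTPM). Of the 15 columns of the deposited gene table, 8 had the total of the library they are named after (tolerance 1 count) and 7 had the total of another library and were not used. Each gene was linked to its transcripts by matching these 8 columns with the transcript files, and gene counts of all 15 libraries were computed again by the same formula. These differed from the 8 deposited columns by at most 0.00661% for counts of 10 or more.

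Libraries were grouped by their labels. GV replicate 3 was left out of the fits, as in the study. Genes were filtered with filterByExpr (count minimum 10, total minimum 15), scaled by TMM (edgeR 4.0.16), since the scaling was not given in the sources used here, and fitted with voom in limma 3.58.1 (R 4.3.3) with Benjamini-Hochberg adjustment (FDR) over 13228 genes. MIX was compared with GV in a 2-group fit, and MII, ‘damaged’ and GV in a 3-group fit. The fits and the matching were tested on simulated data. A chi-square per gene between replicates of a group was 15.2 to 209 over 30 pairs, far above sampling noise, so no libraries were joined. SDs of the GV group are over 4 libraries and SDs of MIX over 10. Depth was 6400412 to 23568633 estimated counts, and intervals cover the spread between libraries.

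The members and gene lists were chosen with earlier results of these data known, so lists are described by counts and medians without a test. Members named with all values were those that passed upward, the 4 largest falls without overlap and the 2 changes nearest 0 of each subunit, DAP3, PTCD3, GADD45GIP1 and MRPL44, the 2 smallest p-values between MII and ‘damaged’, and the 3 highest mean TPM in GV. Of other pathway genes the 2 largest rises and falls were named, and of transcript shares the 3 largest changes. MRPL38 and MRPL46 were named after their values were seen. Alternatives were library sizes, DESeq2 size factors, edgeR quasi-likelihood and DESeq2 1.42.0 tests on rounded counts, other filters, summed counts, all 5 GV libraries, library weights, a replicate term, a 3-group fit and leaving out each library. The library-size alternative for cytosolic ribosomal and OXPHOS genes was chosen after seeing the data. Computations used Python 3.11.15, pandas 2.3.3 and scipy 1.17.1.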

Additional observations from a re-analysis of the deposited data

Results flagged for a closer look

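In 7 of the 105 groups of 5 or 4 libraries examined over the named members, 1 library stood apart from its group by Dixon's gap ratio, which chance does in about 1 of 20 groups. In MII replicate 3, MRPL10 was at 1.45 CPM (nearest library 0.42), MRPS25 at 71.1 CPM (49.1) and PTCD3 at 25.7 CPM (14.4), each above the other MII libraries. MRPS35 was at 57.6 CPM in GV replicate 1, with 24.0 CPM in the nearest GV library. Among ‘damaged’ libraries, MRPL15 was at 499 CPM in replicate 4 (379.9), MRPS27 at 38.5 CPM in replicate 3 (27.3) and MRPL44, below the others, at 73.5 CPM in replicate 5 (85.9).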

How the results depend on the processing

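Over the named members and all alternatives, 790 of 824 values kept direction and side of the threshold. With the sign kept, 14 lost the call and 10 gained it, and 10 changed sign. Of those that changed sign on library sizes, MRPL11, MRPL39, MRPL4 and MRPS27 also lost the call, and MRPS14 gained one as lower. The cause was not tested. On library sizes 8 members were higher in MIX and 8 in ‘damaged’ oocytes, 6 of the large and 2 of the small subunit, with medians of -2.58 and -1.99, ratios of summed levels of 0.435 and 0.449, and 3 other mitochondrial translation, 4 cytosolic ribosomal and 4 OXPHOS genes higher. The ratios in TPM were 0.525 and 0.402. The small-subunit median was -0.87 with all 5 GV libraries and -0.88 by structure. Upregulated DEGs numbered 0 on library sizes and with a filter of 10 CPM, 4 with all 5 GV libraries and 2 with library weights. Signs changed on library sizes for MRPL11 (-0.0014), MRPL39 (-0.38), MRPL4 (-0.11), MRPL49 (-0.53), MRPS14 (-0.79) and MRPS27 (-0.11), with a filter of 10 CPM for MRPS14 (-0.22), with all 5 GV libraries for MRPS18B (0.057), without GV replicate 5 for MRPS14 (-0.10) and without GV replicate 1 for MRPS18B (0.00097). Leaving out 1 library moved MRPS14 between -0.10 and 0.28 and MRPS18B between -0.28 and 0.00097, and gave 1 to 4 upregulated DEGs (4 without GV replicate 1, 2 without ‘damaged’ replicate 5), 24 to 29 downregulated ones, 14 to 15 members higher and 42 to 44 lower.

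With the replicate number as a block, 16 members were higher and 44 lower in MIX (MRPS24 and MRPL3 added). The lowest FDR between MII and ‘damaged’ oocytes over all genes was then 0.0236 in place of 0.999991, with 0 members past 0.01. Whether a shared number marks a shared collection is not given in the sources used here. Deviations of the 13 same-number pairs correlated at -0.112 to 0.364 and those of other pairs at -0.319 to 0.331, and 8 of 14 libraries correlated best with their own number, a hint of shared collections that not every pair showed, so the numbers were not used as pairs. Estimated counts under 5 limit the values of MRPL12, MRPS2 and MRPL57 in all MIX libraries. In some MIX libraries they also limit those of MRPL10, MRPL28, MRPS11 and MRPS12.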
